A study of Homo sapiens with 13 samples.

Results

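SRF is a transcription factor that binds the CArG box, a short site with CC and GG around a core of A and T bases. It acts with myocardin-related cofactors, which unpolymerised actin holds in the cytoplasm, and with ternary complex factors of the ETS family, which mitogen signalling activates. Its targets include SRF itself and many genes of the actin cytoskeleton, and serum is a known stimulus of the pathway. The genes described here are SRF and 9 textbook targets, namely the cytoplasmic actins ACTB and ACTG1, the focal adhesion protein VCL, the actin-associated proteins TAGLN and CNN1, the myosin light chain MYL9, the tropomyosins TPM1 and TPM2 and the actin crosslinker ACTN1. Their peaks were all those in the deposited accessibility table that overlapped a gene, extended by 10 kb on each side, which gave 36 of 129347 peaks. Of these, 9 overlapped a transcription start site (TSS) of a member and are called TSS peaks, and the other 27 are called flanking peaks.

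The data are ATAC-seq of T98G, an established human glioblastoma line. ATAC-seq counts the DNA fragments that the transposase Tn5 cuts out of accessible chromatin, so a value reports the openness of a site and not the expression of its gene. The G1 group held 3 libraries of cells starved of serum for 72 hours. The M-phase group held 3 replicates of cells starved for 48 hours. They were then released for 36 hours into medium with serum and with nocodazole, a microtubule poison. The mitotic cells were harvested by shaking them off. The labels give HiSeq runs for the G1 libraries and both a HiSeq and a NextSeq run for each M-phase replicate, for which the table has 1 column. Whether and how these runs were joined is not stated, so a difference in platform, like serum and nocodazole, cannot be told apart from phase. A larger share of open cells and more open sites per cell cannot be told apart in such bulk samples either. The labels do not say whether replicates were separate cultures, so the p-values measure only the spread between these libraries.

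The values are reads in each peak, scaled by the authors to the smallest library. The total over all peaks ran from 4191845 to 5092426 in the G1 libraries and from 5475345 to 6000423 in the M-phase libraries, with no overlap between the phases. Peaks with enough signal entered a limma fit of log2(scaled count + 8), and a change is M-phase minus G1 on that scale, called when the Benjamini-Hochberg adjusted p over all 73121 tested peaks was under 0.05. Of the 36 member peaks, 31 passed the filter on low values. Over all tested peaks, 10439 were higher and 9548 lower in M-phase. With TMM scaling there were 8875 higher and 12631 lower, and with equal totals per library 6341 higher and 18090 lower. Equal totals moved the median change of all peaks from 0.02 to -0.24.

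The line was checked by TSS peaks at marker genes. Of 5 glioma or mesenchymal markers, 3 had a TSS peak: VIM, an intermediate filament gene, had a mean scaled count of 272 in G1 and 961 in M-phase, CD44 had 2 peaks, and SOX2 had a weak peak of 11.6 in G1 and 7.7 in M-phase, while NES and GFAP had none. Of 6 smooth muscle markers, ACTA2 and SMTN had a peak, MYOCD had a weak one, and MYH11, LMOD1 and DES had none. The ACTA2 peak also covers a start of FAS. The blood markers PTPRC and CD3E and the liver marker ALB had no TSS peak. Of the 2 epithelial markers, CDH1 had none and EPCAM had one at 91.6 in G1 and 107 in M-phase.

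CArG boxes near 4 of the start sites are shown because they are the element that the members are known to share. The annotation's representative transcript of each gene is called canonical here. Between 500 bp before and 100 bp after the canonical TSS, a CArG box was found in 6 of the 10 genes and in 2.59% of 19894 protein-coding genes, a description only, since the genes were chosen as SRF targets. The stretches were read from GRCh37, the assembly of hg19, on the strand of the gene, and end before the TSS, with the boxes in capitals. The SRF promoter holds a pair of boxes.
SRF, chr6:43138952-43139006, plus strand: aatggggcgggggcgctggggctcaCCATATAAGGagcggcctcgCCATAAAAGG
ACTG1, chr17:79479885-79479944, minus strand: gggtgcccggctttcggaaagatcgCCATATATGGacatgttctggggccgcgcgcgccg
VCL, chr10:75757594-75757653, plus strand: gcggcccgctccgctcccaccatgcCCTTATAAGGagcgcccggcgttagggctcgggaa
TAGLN, chr11:117069778-117069837, plus strand: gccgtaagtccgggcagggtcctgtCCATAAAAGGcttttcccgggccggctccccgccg
The boxes of SRF lie at -26 and -6 bp from the canonical TSS, that of ACTG1 at -89 and that of VCL at -251, all within a TSS peak. The TAGLN box shown, at -279, lies in no deposited peak.

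Over the whole length of the peaks, 6 of the 9 TSS peaks held a CArG box, with 2 boxes each at SRF, the canonical ACTB start and ACTG1 and 1 each at VCL, TPM2 and ACTN1. A box was in 3.81% of all 16131 TSS peaks and in 7.87% of the 3012 TSS peaks that were between 1649 and 3362 bp wide, the range of the member TSS peaks. Further boxes lay at 792 bp after the canonical ACTB start, at -1985 bp from that of ACTG1, at -980 bp from that of TPM2 and 1570 bp after that of ACTN1. Measured from the nearest annotated start of the same gene, these boxes lay at 140, -144, -849 and -78 bp, in that order. Of the 23 flanking peaks over no TSS 0 held a box, against 1.53% of such peaks of all genes. Of the 4 flanking peaks over the TSS of another gene 1 held boxes, at the start of a lncRNA gene inside the ACTB record. No box lay within the central 200 bp of a member peak. Such a central box was in 0.49% of all TSS peaks and 0.81% of all flanking peaks over no TSS. The TEAD site GGAATG, searched on both strands, was in 5 of the 9 TSS peaks against 37.6% of all TSS peaks and 57.6% of those of the same width. The AP-1 site TGANTCA was in 3 of 9, against 21.0% and 30.0%. The AP-1 and TEAD shares of the members were near those of TSS peaks of the same width.

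**Figure D1:**
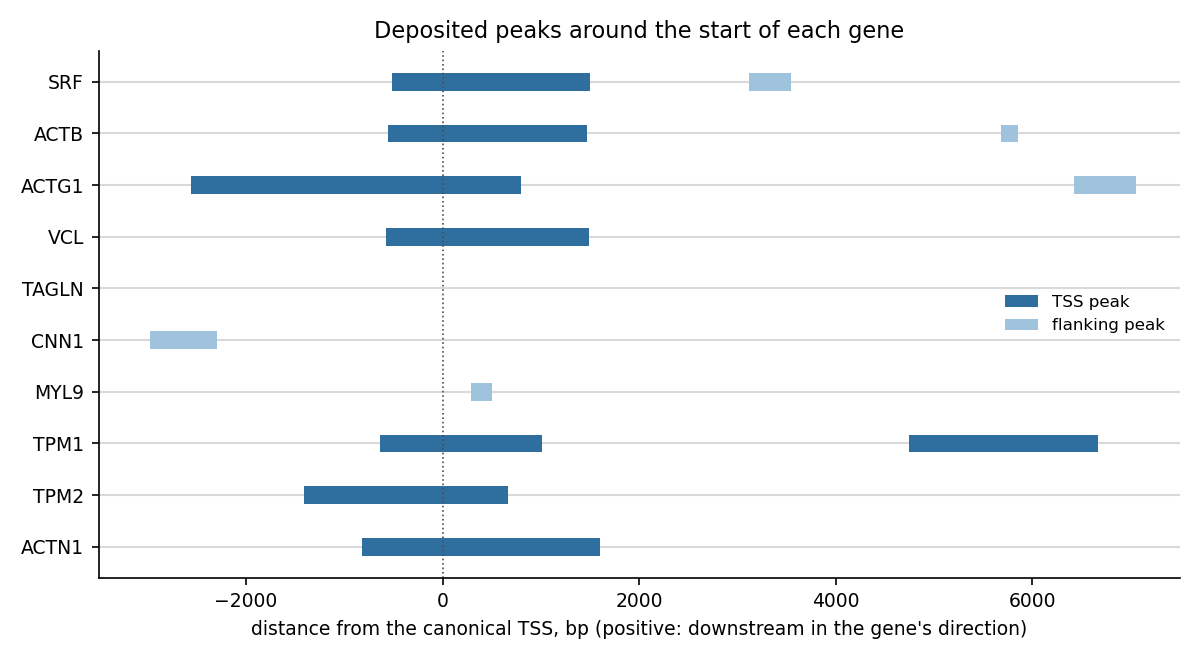
Deposited TSS peaks (dark bars) and flanking peaks (light bars) by distance in bp from the canonical TSS of each of the 10 genes, with positive values downstream. A TSS peak covers the canonical start of 7 genes, whereas TAGLN, CNN1 and MYL9 have none.

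A TSS peak was present at 7 of the 10 genes and at 66.4% of 20176 annotated protein-coding genes. TAGLN, a gene of contractile cells, had no peak within 10 kb, and the nearest peak was 19411 bp from its canonical TSS. CNN1, another smooth muscle gene, had its nearest peak 2296 bp from the canonical TSS. MYL9, a regulatory myosin light chain, had a weak peak 289 bp downstream of its canonical TSS with scaled counts of 17.9, 22.7 and 22.0 in G1 and 20.2, 13.6 and 13.5 in M-phase. The phases overlapped there (change -0.29, SE 0.29, limma adjusted p = 0.502). The table gives no value for DNA outside its peaks, so accessibility at these 3 start sites themselves was not analysed here.

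At the genes with a TSS peak, accessibility at the start sites was higher in M-phase. In 8 of the 9 TSS peaks the value rose, by 0.67 to 1.50 on the log2 scale, none fell, and the peak over the canonical TPM1 start did not pass the test. The median change was 1.07, compared with 0.39 for all TSS peaks, of which 43.2% were higher and 5.94% lower. Of the TSS peaks of the same width 72.3% were higher, with a median of 0.76, so a rise was the common case for TSS peaks this wide. Every M-phase library lay above every G1 library in 8 of the 9 member TSS peaks. So it was in 7520 of the 15500 tested TSS peaks and in 2304 of the 3012 of the same width. With TMM scaling (38.5% of all TSS peaks higher) and with equal totals (29.3% higher) 8 of 9 were again called higher. After a trended loess normalization, which removes any dependence of the change on the level of a peak, 3 of 9 were called higher, against 21.3% of all TSS peaks, and TPM2 and the canonical TPM1 peak had negative changes (-0.056 and -0.33). The 3 were SRF (0.50), VCL (0.76) and the internal TPM1 peak (0.39). The median change of the 9 was then 0.12, against 0.06 for all TSS peaks. The shares under the alternative scalings are those of all TSS peaks and were not computed for TSS peaks of the same width. Leaving out any of the 6 libraries left 8 TSS peaks called higher each time.

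**Figure D2:**
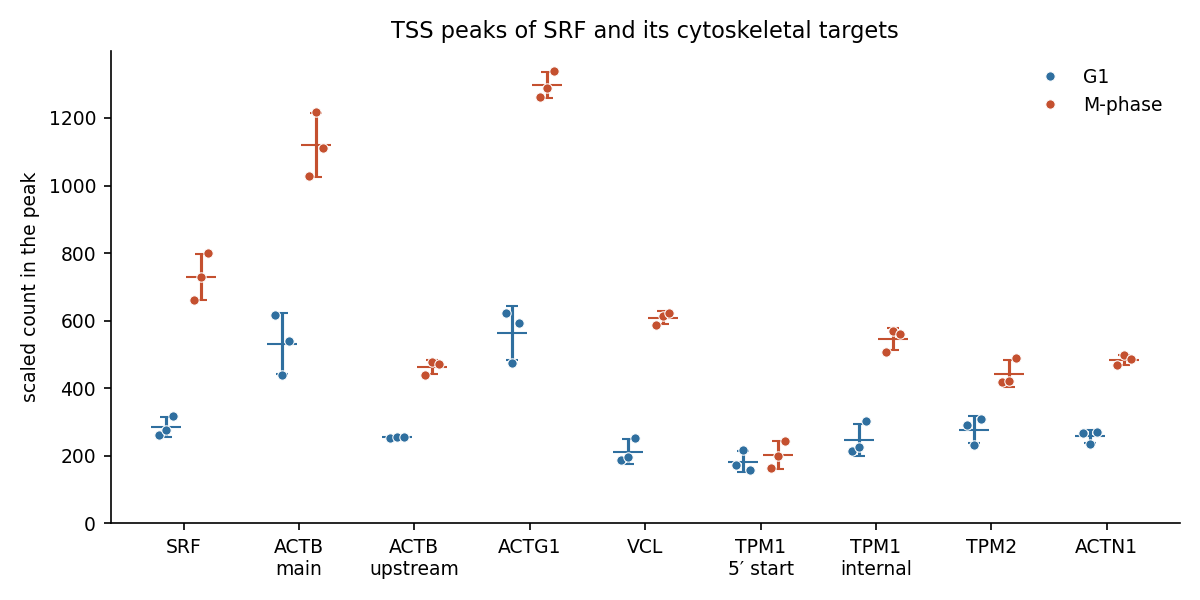
Scaled count in each of the 9 TSS peaks in the 3 G1 and the 3 M-phase libraries (points), with the mean (line) and SD (bars). The phases are separate in 8 peaks and overlap at the 5′ start of TPM1, as the table is scaled. M-phase also lay wholly above G1 in 7520 of the 15500 tested TSS peaks. It did so in 2304 of the 3012 of the same width. After the trended loess normalization 3 of the 8 were called.

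The SRF peak (chr6:43138490-43140510) covers the only annotated start of the gene. Its scaled counts were 261.5, 275.8 and 317.0 in G1 and 662.0, 728.9 and 798.8 in M-phase. Every M-phase library lay above every G1 library. The mean of 730 ± 68.4 (SD, n = 3) in M-phase was 2.56 times that of 285 ± 28.8 in G1 (change 1.33, SE 0.16, limma adjusted p = 1.47e-10).

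The cytoplasmic actins ACTB and ACTG1 are the building blocks of the filaments. The ACTB peak over the canonical start (chr7:5568763-5570784) had 617.4, 438.3 and 540.0 in G1 and 1029.5, 1217.2 and 1111.5 in M-phase. The phases were separate, and the mean rose from 532 ± 89.8 to 1119 ± 94.1 (change 1.07, SE 0.15, limma adjusted p = 1.70e-08). A further ACTB peak (chr7:5601707-5603504) covers 3 annotated transcript starts far upstream in the same record. It had 253.5, 255.5 and 256.0 in G1 and 438.3, 476.7 and 471.6 in M-phase, again separate (change 0.84, SE 0.17, limma adjusted p = 4.42e-05). The ACTG1 peak (chr17:79479023-79482384) had 623.3, 473.4 and 594.0 in G1 and 1262.6, 1289.7 and 1339.6 in M-phase. This peak also covers starts of other annotated genes. It rose from a mean of 564 ± 79.4 to 1297 ± 39.1 with no overlap (change 1.20, SE 0.15, limma adjusted p = 2.43e-10). These rises were not called after the trended loess normalization, with changes of 0.03 for the canonical ACTB peak, 0.12 for the upstream ACTB peak and 0.12 for ACTG1. ACTB and ACTG1 have processed pseudogenes, and mapping kept 1 location for reads with up to 3, so counts over their exons are uncertain.

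VCL encodes vinculin, which ties actin filaments to adhesion sites. Its TSS peak (chr10:75757296-75759365) had 186.9, 196.1 and 253.0 in G1 and 587.0, 613.5 and 623.6 in M-phase. The phases were far apart, and VCL had the largest change of the 9 TSS peaks, with a mean in M-phase 2.87 times that in G1 (change 1.50, SE 0.17, limma adjusted p = 1.15e-11). ACTN1 encodes alpha-actinin, which crosslinks actin filaments. Its peak (chr14:69444420-69446837), which also covers a start of the divergent transcript gene ACTN1-DT, had 266.4, 234.4 and 271.0 in G1 and 467.6, 496.9 and 485.5 in M-phase. The libraries of each phase were close together and the phases separate (change 0.89, SE 0.17, limma adjusted p = 1.39e-05), but the change was 0.16 and not called after the trended loess normalization (adjusted p = 0.330).

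Tropomyosins are coiled-coil proteins that lie along the actin filament, and TPM1 uses alternative promoters. The peak over its canonical 5′ start (chr15:63334306-63335954) had 172.0, 216.4 and 156.0 in G1 and 162.3, 198.6 and 243.5 in M-phase. The phases overlapped (change 0.14, SE 0.19, limma adjusted p = 0.649), and the sign depended on M-phase replicate 3 (-0.0018 without it) and on the scaling (-0.20 with equal totals). The internal peak (chr15:63339688-63341617) covers 13 annotated TPM1 starts and a start of the antisense gene TPM1-AS. It had 213.7, 225.8 and 302.0 in G1 and 507.5, 568.6 and 561.5 in M-phase, with no overlap between phases (change 1.13, SE 0.17, limma adjusted p = 7.81e-08). The counts do not separate the strands.

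The log2 ratio of the internal to the canonical TPM1 peak was 0.30, 0.06 and 0.92 in G1 and 1.60, 1.48 and 1.18 in M-phase. The ratio was thus higher in every M-phase library, by 0.99 on average (exact permutation test, two-sided, p = 0.1, which is as low as 3 against 3 libraries can reach). The log2 ratio of the upstream to the canonical ACTB peak was -1.02 ± 0.25 (SD, n = 3) in G1 and -1.26 ± 0.07 in M-phase, and the phases overlapped (exact permutation p = 0.3). A scaling that multiplies a library by a constant barely touches these ratios. How often the ratio of 2 TSS peaks of the same gene separates the phases over all genes was not computed. The shift at TPM1 therefore has no background here.

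TPM2, a tropomyosin of muscle and other contractile cells, had 1 peak (chr9:35689254-35691337), with 290.3, 232.0 and 308.0 in G1 and 416.9, 421.5 and 489.4 in M-phase. The phases were separate, with the smallest of the called changes among the TSS peaks (0.67, SE 0.17, limma adjusted p = 0.00133). The change was 0.32 with equal totals (adjusted p = 0.0404).

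To compare levels between genes, scaled counts were divided by the width of the peak. In G1 the canonical ACTB peak was highest at 263 ± 44.4 scaled counts per kb (SD, n = 3), above ACTG1 at 168 ± 23.6 with no overlap between their libraries. The other 7 peaks lay between 102 and 142 per kb on average, and each of their neighbours in that order overlapped. In M-phase the order was the canonical ACTB peak at 554 ± 46.5, ACTG1 at 386 ± 11.6, SRF at 361 ± 33.8, VCL at 294 ± 9.13, the internal TPM1 peak at 283 ± 17.3, the upstream ACTB peak at 257 ± 11.6, TPM2 at 212 ± 19.5, ACTN1 at 200 ± 6.11 and the canonical TPM1 peak at 122 ± 24.7. Of these neighbours, ACTG1 and SRF overlapped, as did VCL and the internal TPM1 peak, the internal TPM1 and the upstream ACTB peak, and TPM2 and ACTN1. VCL had the lowest mean per kb in G1 and the fourth highest in M-phase.

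The 6 TSS peaks with a CArG box changed by 0.67 to 1.50 and the 3 without, the upstream ACTB peak and both TPM1 peaks, by 0.14 to 1.13, so the ranges overlapped.

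Flanking peaks moved both ways. Of the 27, 22 were tested, of which 8 were higher, 2 lower and 12 not called, with a median change of 0.28. In 4 cases a flanking peak covered the TSS of another gene, and of the 18 tested flanking peaks over no TSS 6 were higher and 2 lower, with a median change of 0.21. Of all flanking peaks over no TSS, 7.51% were higher and 14.7% lower, with a median of -0.04. That background was not matched in level or width. The 23 member peaks over no TSS, tested or not, had a median scaled count of 25.5 and a median width of 315 bp. Over all genes the medians of such peaks were 9.55 and 219 bp. With equal totals 3 of the 22 were higher and 3 lower and the median was -0.0068. After the trended loess normalization 6 were higher and 2 lower, with a median of 0.23. The medians of all flanking peaks over no TSS were -0.29 with equal totals and 0.03 after the trended loess normalization. Their shares called under these scalings were not computed, so these member counts have no background here. The 5 peaks below the filter, in ACTG1, VCL and TPM1, had mean scaled counts of at most 15.2 in either phase.

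**Figure D3:**
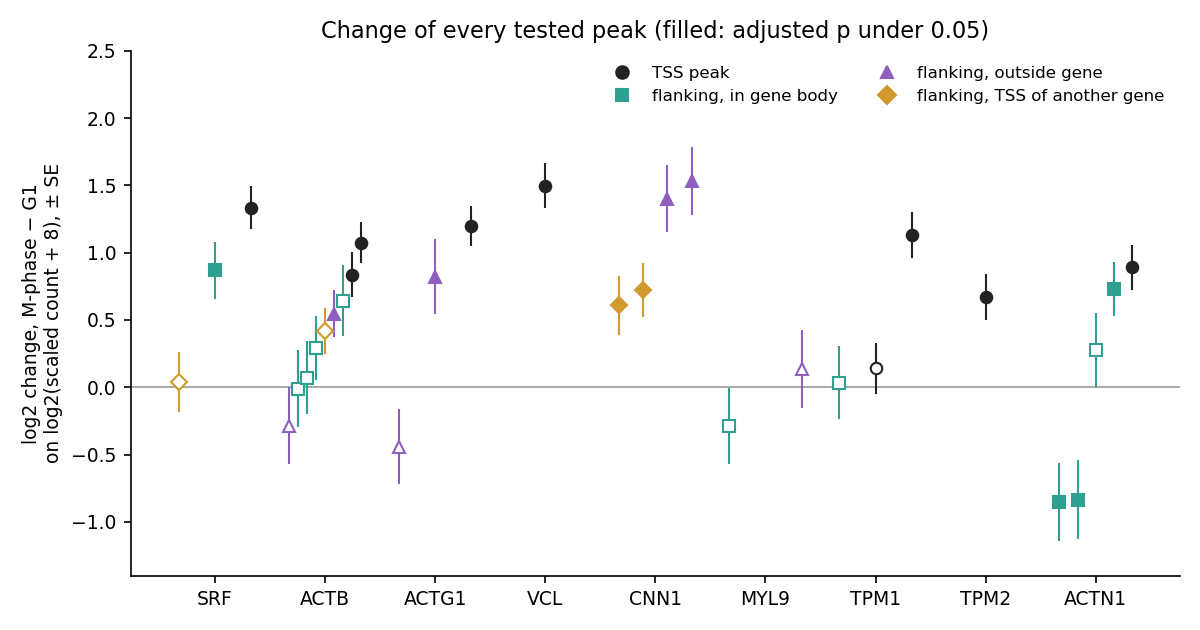
Change from G1 to M-phase with its SE for the 31 tested peaks, by gene and by place of the peak, with peaks at adjusted p under 0.05 filled. The TSS peaks other than the canonical TPM1 peak lie between 0.67 and 1.50, and the flanking peaks spread from -0.85 to 1.53; several of these calls depend on the scaling.

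The largest flanking rises were at CNN1, which encodes a calponin that binds actin in smooth muscle. A pair of peaks upstream of the gene lies in no annotated gene. The one nearer to CNN1 (chr19:11646689-11647370) had 14.9, 30.5 and 31.0 in G1 and 73.7, 88.2 and 72.7 in M-phase (change 1.40, SE 0.25, limma adjusted p = 5.33e-06). The other (chr19:11642813-11643619) had 22.9, 32.8 and 16.0 in G1 and 64.3, 86.9 and 98.6 in M-phase (change 1.53, SE 0.25, limma adjusted p = 7.85e-07). The annotated start nearest to its centre, 3229 bp away, is that of ECSIT and not of CNN1. In both, every M-phase library lay above every G1 library, and both were called with each scaling, at 1.11 to 1.52 and 1.23 to 1.65. The other peaks around CNN1 cover starts of neighbouring genes. The ECSIT start rose from 99.2 ± 19.8 to 167 ± 16.7 (change 0.72, SE 0.20, limma adjusted p = 0.00386) and was not called with equal totals (0.39) or the trended loess normalization (0.43). The shared start of ELOF1 and ZNF627 rose from 69.1 ± 15.6 to 108 ± 8.91 (change 0.61, SE 0.22, limma adjusted p = 0.0275). That call was lost under all 3 other scalings (0.29 to 0.50) and without G1 replicate 1 (0.54), G1 replicate 2 (0.51), M-phase replicate 2 (0.57) or M-phase replicate 3 (0.58).

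Near the start of SRF, an intronic peak (chr6:43142122-43142556) had 85.5, 63.3 and 101.0 in G1 and 128.1, 163.6 and 180.9 in M-phase. It rose without overlap (change 0.87, SE 0.21, limma adjusted p = 0.000702) and was called with each scaling. At the other end of the SRF window, the start of CUL9 had 77.2 ± 8.72 in G1 and 80.6 ± 19.1 in M-phase (change 0.04, SE 0.22, limma adjusted p = 0.923).

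At ACTB, a peak outside the record, beyond its upstream start (chr7:5608943-5610426), had 236.6, 250.8 and 259.0 in G1 and 318.9, 349.0 and 443.2 in M-phase. The phases were separate (change 0.55, SE 0.17, limma adjusted p = 0.0118). The call was lost with equal totals (0.20), without G1 replicate 1 (0.51) and without M-phase replicate 3 (0.41), and the change was -0.12 after the trended loess normalization. The peak with CArG boxes over the lncRNA start (chr7:5594776-5596608) had 256 ± 34.2 in G1 and 343 ± 17.7 in M-phase, separate but not called (change 0.42, SE 0.17, limma adjusted p = 0.0624). The other 5 flanking peaks at ACTB were not called, with changes between -0.28 and 0.64.

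At ACTG1, a peak downstream of the gene (chr17:79472773-79473400) had 13.9, 25 and 16 in G1 and 28.4, 47.0 and 39.9 in M-phase (change 0.82, SE 0.28, limma adjusted p = 0.0179). The libraries did not overlap, but the call was lost with equal totals (0.55) and without G1 replicate 1 (0.70), M-phase replicate 2 (0.69) or M-phase replicate 3 (0.79). A peak in FSCN2, on the other side of ACTG1, had 27.2 ± 2.42 in G1 and 18.2 ± 5.02 in M-phase, lower in every M-phase library yet not called (change -0.44, SE 0.28, limma adjusted p = 0.260). The TPM1 intron peak (chr15:63345540-63345854) had 28.3 ± 8.72 and 28.7 ± 5.12, and the peak beyond MYL9 (chr20:35184843-35185263) 25.6 ± 10.0 and 29.7 ± 15, both with overlapping phases.

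Within ACTN1, flanking peaks went both ways. The strongest (chr14:69417548-69419801) had 100.4, 77.3 and 106.0 in G1 and 154.9, 171.8 and 155.9 in M-phase. It rose without overlap (change 0.73, SE 0.20, limma adjusted p = 0.00351), and was not called with equal totals (0.40, adjusted p = 0.0717). A weak peak (chr14:69365413-69365800) had 15.9, 16.4 and 36.0 in G1 and 13.6, 6.6 and 6.3 in M-phase (change -0.84, SE 0.29, limma adjusted p = 0.0242). One further in (chr14:69408621-69408763) had 19.9, 8.6 and 22.0 in G1 and 11.1, 4.5 and 1.9 in M-phase, and its phases overlapped (change -0.85, SE 0.29, limma adjusted p = 0.0196). These were the only called falls among the member peaks. The first was lost without G1 replicate 3 (-0.55), M-phase replicate 2 (-0.75) or M-phase replicate 3 (-0.73). The second was lost without G1 replicate 1 (-0.74), G1 replicate 3 (-0.69), M-phase replicate 2 (-0.81) or M-phase replicate 3 (-0.64).

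**Figure D4:**
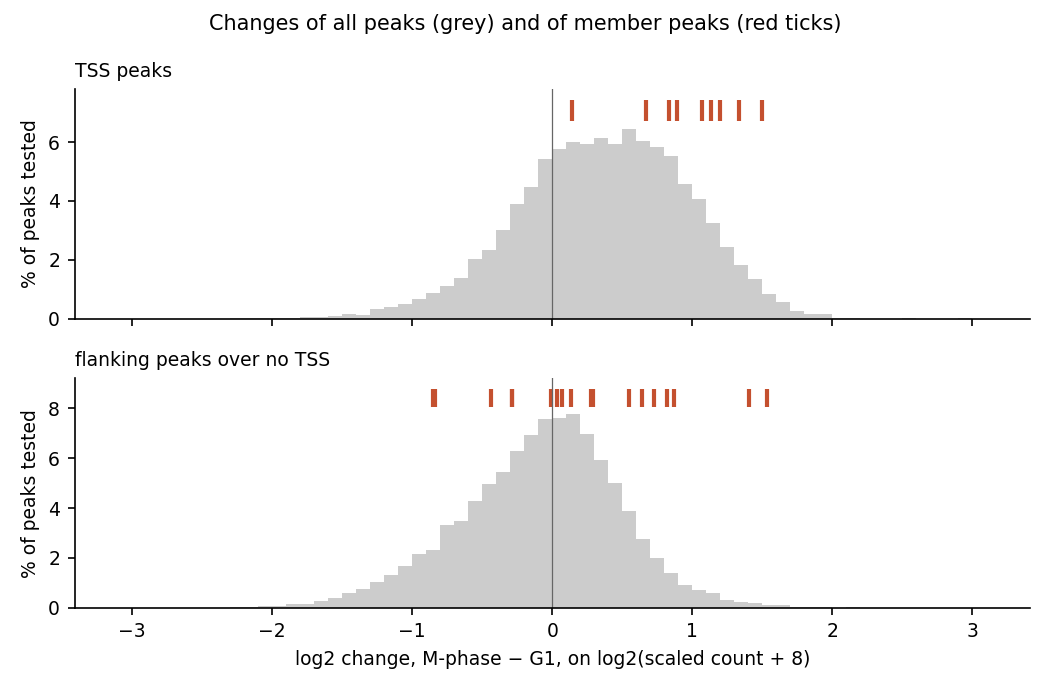
Share of all tested TSS peaks (top) and of all tested flanking peaks over no TSS (bottom) in each bin of change from G1 to M-phase (grey, percent), with the changes of the member peaks as red ticks. The median of the 9 member TSS peaks is 1.07 against 0.39 for all TSS peaks and 0.76 for those of the same width. That of the 18 member flanking peaks is 0.21 against -0.04. After the trended loess normalization the median of the member TSS peaks is 0.12 against 0.06 for all TSS peaks. TPM2 and the canonical TPM1 peak then lie below 0.

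The split between start sites and their surroundings was also measured within each library as the log2 ratio of summed TSS to summed flanking counts, leaving out peaks over starts of other genes. It does not depend on any constant that multiplies a library. It could be formed for 4 genes, since VCL and TPM1 had flanking sums under the minimum mean of 50, TPM2 had no flanking peak and the other 3 no TSS peak. At SRF the ratio was 1.61, 2.12 and 1.65 in G1 and 2.37, 2.16 and 2.14 in M-phase. At ACTB it was 1.28, 0.84 and 1.04 in G1 and 1.62, 1.75 and 1.41 in M-phase. At ACTG1 it was 3.56, 2.50 and 3.17 in G1 and 4.30, 4.19 and 4.18 in M-phase. The ACTG1 flanking sums were small, at 52.7, 83.7 and 66 in G1 and 64.3, 70.9 and 74 in M-phase. They include peaks too weak to test and the peak in FSCN2. The SRF flanking sum is that of 1 peak, the intronic one. Each M-phase library of SRF, ACTB and ACTG1 lay above each G1 library. So it was at ACTN1, with 0.79, 0.89 and 0.45 in G1 and 1.13, 1.25 and 1.27 in M-phase. The mean differences were 0.43 at SRF, 0.54 at ACTB, 1.14 at ACTG1 and 0.51 at ACTN1 (exact permutation p = 0.1 each and 0.1 after adjustment over the 4 genes, the smallest possible). Of 4202 genes with both kinds of peak, 52.8% had every M-phase library above every G1 library and 6.85% below, with a median difference of 0.50. The shifts at ACTB and ACTN1 were thus near that of the median gene, and that at SRF, 0.43, was slightly below it. With the peak over the CUL9 start counted as flanking the SRF shift was 0.79. The median over all genes left such peaks out, so it is not a background for that value.

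**Figure D5:**
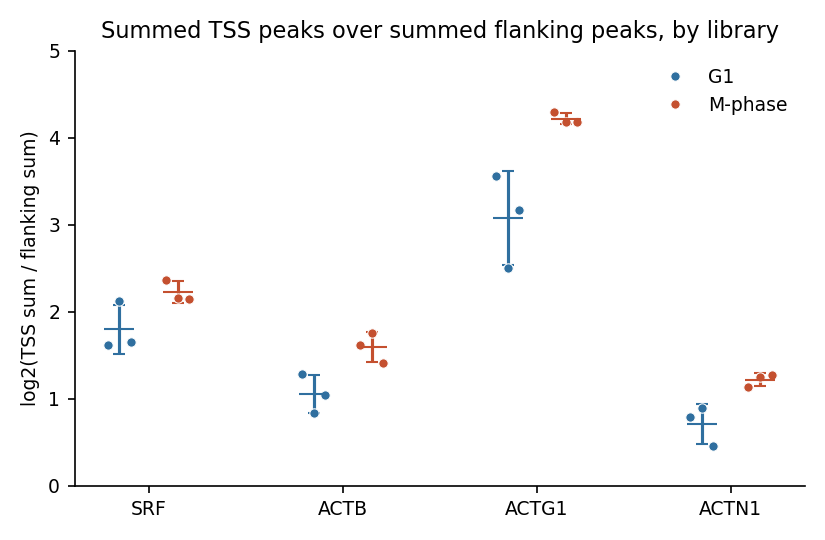
Log2 ratio of summed scaled counts in TSS peaks to those in flanking peaks, in the 3 G1 and the 3 M-phase libraries (points) with mean (line) and SD (bars), for the 4 genes where it could be formed. All M-phase libraries lie above the G1 libraries, by 0.43 to 1.14 on average, as was the case for 52.8% of 4202 genes. The largest difference, at ACTG1, rests on flanking sums of 52.7 to 83.7.

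The 6 listed cofactors of SRF all had a deposited TSS peak, 7 peaks in all. Of these 6 were tested, 5 were higher and none lower, with a median change of 0.82, where 43.2% of all TSS peaks were higher with a median of 0.39. The widths of the cofactor peaks were not matched to those of all TSS peaks. MRTFA, the actin-regulated coactivator, had a main peak (chr22:41031890-41033369) with 208.8, 219.5 and 226.0 in G1 and 548.3, 631.2 and 645.7 in M-phase (change 1.44, SE 0.17, limma adjusted p = 2.74e-11). Its second TSS peak rose by 1.02, and that of the related MRTFB by 0.60. Among the ternary complex factors, ELK4 rose by 0.97 and ELK3 by 0.66, and ELK1 had 197 ± 48.8 in G1 and 243 ± 20.8 in M-phase (change 0.32, SE 0.19, limma adjusted p = 0.214). MYOCD, the coactivator of heart and smooth muscle, had a peak too weak to test, with means of 4.1 and 7.03. With TMM, equal totals and the trended loess normalization 4, 3 and 2 of the 6 were called higher and none lower, where 38.5%, 29.3% and 21.3% of all TSS peaks were higher. No peak of these cofactors held a CArG box.

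Of 41 other genes of the actin cytoskeleton, 35 had a TSS peak. Of their 50 tested TSS peaks 32 were higher and 4 lower, with a median change of 0.66, compared with 43.2% higher, 5.94% lower and a median of 0.39 for all TSS peaks. Of the TSS peaks between 1649 and 3362 bp wide, 72.3% were higher, with a median of 0.76. The widths of the listed peaks were not matched to either set. Of the 51 peaks 12 held a CArG box, against 3.81% of all TSS peaks and 7.87% of those in that range of width. Many of these genes were listed as known SRF targets. CORO1C, an actin-binding coronin, had the largest rise, from 331 ± 51.5 to 1001 ± 62.9 (change 1.58, SE 0.16, limma adjusted p = 9.29e-14). The largest fall was at 1 of 3 start-site peaks of FHL2, a LIM-domain protein, from 81.6 ± 17.7 to 39.5 ± 13.9 (change -0.94, SE 0.24, limma adjusted p = 0.00159), while another FHL2 start rose by 0.82. The muscle actins ACTA1, ACTC1 and ACTG2, the muscle genes MYH11 and LMOD1, and TES had no TSS peak, as at TAGLN and CNN1. With TMM 30 peaks were higher and 6 lower, with equal totals 25 and 11, and after the trended loess normalization 13 and 10 with a median of 0.05. The shares of all TSS peaks called higher under these scalings were 38.5%, 29.3% and 21.3%.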

How the data were processed

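The 6 ATAC-seq columns of the deposited peak table were used, and the chromatin fraction and input libraries were not used here. The authors trimmed adapters with cutadapt, mapped reads to hg19 with Bowtie, keeping 1 of up to 3 locations per read, and used SAMtools to drop mitochondrial reads. Broad peaks were called by MACS2 after replicates had been merged. Tool versions and a shift of read ends for Tn5 are not given in the sources used here. The signal values deposited by the authors are read counts per peak, brought by scaling to the size of the smallest library and given to 0.1, so a count model was not used. The authors' own log2 change and its SD, also in the table, were not used, and the number of other unused columns of per-sample values was 0.

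The values, as log2(scaled count + 8), were fitted with phase as the only term and a trend of variance on mean (limma 3.58.1, R 4.3.3). Peaks were kept with at least 3 libraries at a value equivalent to 10 or more in a library of median total, and a total of at least 15. Depth limits weak peaks, and no counting interval can be given for scaled values. The lowest correlation between libraries within a phase was 0.938, the highest between phases 0.903, and 0 pairs were identical. Start sites came from GENCODE release 44 lifted to GRCh37, and all 129347 peaks lie within its chromosomes. Members and lists were chosen with earlier results of these data known. The peaks named are all member TSS peaks, each flanking peak called, the strongest flanking peak per gene, all SRF cofactors, and the largest rise and fall of the actin list, with uncalled peaks of a mean under 10 given by range. The peaks at the starts of CUL9 and the ACTB lncRNA, in FSCN2, in the MYL9 gene body and the rising FHL2 start were added after their values were seen. Python 3.11.15, numpy 2.4.6, pandas 2.3.3, pysam 0.24.0 and matplotlib 3.10.9 were used. Alternatives were other scalings, filters, a pseudocount of 1, a replicate block, leaving out each library and other definitions of TSS and window. Some sequences and a marker gene are not reported here.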

Additional observations from a re-analysis of the deposited data

How the results depend on the processing

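Of 271 pairs of a named peak and an alternative, 230 kept their direction and side of the threshold, 28 lost the call and 13 changed sign, and the cause was not tested. Equal totals gave 6341 peaks higher and 18090 lower over all peaks, 3 member flanking peaks higher and a median of -0.0068 for member flanking peaks, with -0.13 at the peak beyond MYL9, -0.20 at the canonical TPM1 start and -0.24 at the TPM1 intron peak, which was -0.072 with TMM. The trended loess normalization left 3 member TSS peaks called, with -0.12 at the ACTB peak outside the record, -0.33 at the canonical TPM1 start and -0.056 at TPM2. With at least 10 in every library, which tests fewer peaks, 5001 of all peaks and 0 member flanking peaks were lower. Counting the 5′ end of the gene record alone as TSS gave 4 TSS peaks, of which 3 were higher, and 13 flanking peaks higher, and the gene body without extension gave 2 flanking peaks higher. With 1 mismatch allowed, 12 flanking peaks and all 9 TSS peaks held a CArG box. Of the 23 flanking peaks over no TSS 9 did, against 20.1% of such peaks of all genes. Among all TSS peaks the share was 41.2%, and among those of the same width 61.3%. Within the central 200 bp 0 TSS and 0 flanking peaks held a box. Over all genes 0.49% of TSS peaks and 0.81% of flanking peaks over no TSS did.

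Leaving out 1 library at a time gave 7985 to 11906 peaks higher and 7171 to 8872 lower over all peaks, 8 member TSS peaks higher each time, and 5 to 8 member flanking peaks higher and 0 to 2 lower. The change ranged from -0.15 to 0.45 at the peak beyond MYL9, from -0.0018 to 0.28 at the canonical TPM1 start and from -0.11 to 0.22 at the TPM1 intron peak. With the replicate block 10881 peaks were higher and 10063 lower, and 8 member TSS peaks higher, 8 member flanking peaks higher and 2 lower. Libraries with the same number correlated in their deviations from the phase means at 0.00594, -0.0101 and 0.0284, so the numbers were not taken as pairs. A count test on reads recovered from the scaled values was not run, since rounding hid the steps in some M-phase columns.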
